A study of Mus musculus with 8 samples.

Results

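Thymic epithelial cells form the stroma in which T cells mature, and 5 genes that mark them were followed in RNA-sequencing of mouse hearts: Foxn1, Psmb11, Aire, Prss16 and Ccl25. The genes were chosen by name, as markers of thymus tissue rather than of T cells that travel in blood, and were set beside the thymocyte genes Rag1 and Dntt. Of the 5 genes, 3 were measured among the 25929 genes listed in the expression table. Foxn1 (ENSMUSG00000002057) and Psmb11 (ENSMUSG00000072423) have no row in the table used here, so their expression was not analysed here. Each listed gene was above 0 in at least 2 of the 8 libraries, so a gene detected in 1 library only would have no row.

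There were 2 libraries in each of 4 groups, and a library is named by its group followed by its replicate number. WT-Sham and WT-TAC were wild-type mice, C57BL/6 by the sample labels and C57BL/6J in the study's abstract. WT-Sham had sham surgery and WT-TAC had transverse aortic constriction (TAC), a ligature around the aortic arch that loads the left ventricle with pressure. Fat1-Sham and Fat1-TAC were littermates carrying fat-1, the C. elegans n-3 fatty acid desaturase that turns n-6 into n-3 polyunsaturated fatty acids, after the same surgeries. Surgery was done at 3 months of age, and the hearts were taken weeks later. The sample labels name ventricles as the tissue and the study's methods name whole hearts, and the promoter that drives the transgene is not given in the sources used here. The labels call the 2 libraries of a group independent samples, and the p-values below measure only the spread between such samples. The expression unit was FPKM, the number of sequenced fragments scaled to transcript length and library depth. The depth recovered from the FPKM values was 14163994 fragments in WT-Sham1 and between 17780695 and 21218331 in the other 7 libraries.

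Thymic epithelium is divided into an outer cortex, where immature thymocytes rearrange their receptor genes and are tested for recognition of self MHC, and an inner medulla, where T cells that recognise the body's own proteins are removed. Foxn1 is the transcription factor on which thymic epithelial differentiation depends. Psmb11 is the beta5t subunit of the thymoproteasome of cortical epithelium, and Prss16 is the thymus-specific serine protease of the same cells. Ccl25 is a chemokine that draws thymocyte precursors through the receptor Ccr9, and it is also made in the small intestine. Aire is the regulator that lets medullary epithelium transcribe genes of other tissues. Rag1, which cuts antigen receptor genes, and Dntt, which adds bases at their joints, are used by immature lymphocytes and are switched off in mature circulating T cells.

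WT-TAC1 stood apart from the other 7 libraries. In it, 640 of the 25929 listed genes (2.47%) were at 10 or more times their level in every other library and at 1 FPKM or more, whereas between 0 and 3 genes met this rule in any other library. These 640 genes took 3.69% of the fragments of WT-TAC1 and between 0.0524% and 0.108% of those of the other libraries. All 3 measured thymic epithelial genes were among them. Of all listed genes, 51.7% were highest in WT-TAC1. The median-of-ratios factor is the median level of genes above 0 in all 8 libraries, relative to their geometric means. It was 1.51 in WT-TAC1 and 0.864 to 1.10 in the others. The tests of Ccl25 between groups are therefore given with and without this library, as are the calls of some listed genes.

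Promoters of Ccl25 and Aire are shown because the genes were high in the same library and because the letters GACGC form the core of the sequence that Foxn1 recognises. Sequences are the 250 bases before an annotated start in RefSeq (GRCm38.p6), on the gene's strand, with each GACGC and its reverse complement GCGTC in capitals. Prss16 had no window in the promoter source used here and is not shown. Ccl25 has a pair of annotated starts. The upstream window, at chr8:4324960-4325209 on the plus strand, is 74.8% G and C and holds 45 CpG dinucleotides, whereas the downstream window, at chr8:4349338-4349587, holds 0. The Aire window is at chr10:78043611-78043860 on the minus strand.
Ccl25, upstream start: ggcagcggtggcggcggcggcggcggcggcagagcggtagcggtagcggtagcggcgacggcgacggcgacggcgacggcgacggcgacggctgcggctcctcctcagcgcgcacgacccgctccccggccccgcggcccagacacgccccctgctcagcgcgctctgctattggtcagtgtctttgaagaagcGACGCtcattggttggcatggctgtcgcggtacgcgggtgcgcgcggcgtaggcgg
Ccl25, downstream start: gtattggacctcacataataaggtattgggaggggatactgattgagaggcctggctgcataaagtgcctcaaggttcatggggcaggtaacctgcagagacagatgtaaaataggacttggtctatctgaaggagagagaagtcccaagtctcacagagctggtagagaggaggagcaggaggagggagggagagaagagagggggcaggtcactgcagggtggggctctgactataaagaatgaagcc
Aire: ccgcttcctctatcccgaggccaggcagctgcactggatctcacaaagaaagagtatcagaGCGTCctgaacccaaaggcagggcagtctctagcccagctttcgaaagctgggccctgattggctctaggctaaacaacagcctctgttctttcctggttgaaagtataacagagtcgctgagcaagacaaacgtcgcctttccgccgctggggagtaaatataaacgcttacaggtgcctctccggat

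The upstream Ccl25 window and the Aire window each held 1 match, and the downstream Ccl25 window held 0. Such letters were found in 7423 of the 32851 windows of this length (22.6%), so a match does no more than describe the window. The genes of the pair not measured were read as well. The Foxn1 window held 0 matches and the Psmb11 window held 2.

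Prss16 (ENSMUSG00000006179, GRCm38 chr13:22002173-22009742, minus strand) was the highest of the 3 genes in WT-TAC1. It was at 228 FPKM there, from 7093 fragments. In WT-TAC2 it was at 0.0708 FPKM, from 2 fragments. The other 6 libraries held 0 fragments in WT-Sham1, WT-Sham2, Fat1-Sham1 and Fat1-TAC2, 1 in Fat1-Sham2 and 2 in Fat1-TAC1. Every library but WT-TAC1 was thus at or under the detection floor of 3 fragments, and the WT-TAC libraries were on either side of it. Against the floor of each WT-Sham library, Prss16 in WT-TAC1 was at least 1689-fold higher for WT-Sham1 and at least 2530-fold higher for WT-Sham2. Its rank by FPKM among all listed genes in WT-TAC1 was 409.

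Ccl25 (ENSMUSG00000023235, GRCm38 chr8:4325210-4360020, plus strand) was at 142 FPKM in WT-TAC1, from 3145 fragments, and at 4.39 FPKM in WT-TAC2. It was at 1.96 and 2.95 FPKM in the WT-Sham libraries, at 2.11 and 1.97 in Fat1-Sham and at 2.64 and 2.32 in Fat1-TAC. WT-TAC1 was high, and the other 7 libraries lay between 1.96 and 4.39 FPKM, with WT-TAC2 at their top. Unlike Prss16 and Aire, Ccl25 was above the floor in every library, and its level in WT-TAC1 was 32.4 times that in WT-TAC2. By group mean the order was WT-TAC at 73.2 ± 97.3 FPKM (SD, n = 2), Fat1-TAC at 2.48 ± 0.224, WT-Sham at 2.46 ± 0.703 and Fat1-Sham at 2.04 ± 0.103. The SD of WT-TAC exceeded its mean, the means of Fat1-TAC and WT-Sham differed by less than the SD of either, and those of WT-Sham and Fat1-Sham by less than the SD of WT-Sham.

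Aire (ENSMUSG00000000731, GRCm38 chr10:78030022-78043610, minus strand) was the lowest of the 3 in WT-TAC1. It was at 7.90 FPKM there, from 267 fragments, and at 0.163 FPKM in WT-TAC2. It was at 0.0414 and 0.0829 FPKM in WT-Sham, at 0.165 and 0.0600 in Fat1-Sham, and at 0 and 0.162 in Fat1-TAC. Only WT-TAC1 was high, and WT-TAC2 lay within the range of the sham and Fat1-TAC libraries, each of which held 5 fragments or fewer. The ratio of WT-TAC1 to the other 7 libraries pooled was 81.8, with a 95% exact binomial interval of 52.4 to 134 that covers counting error only.

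**Figure D1:**
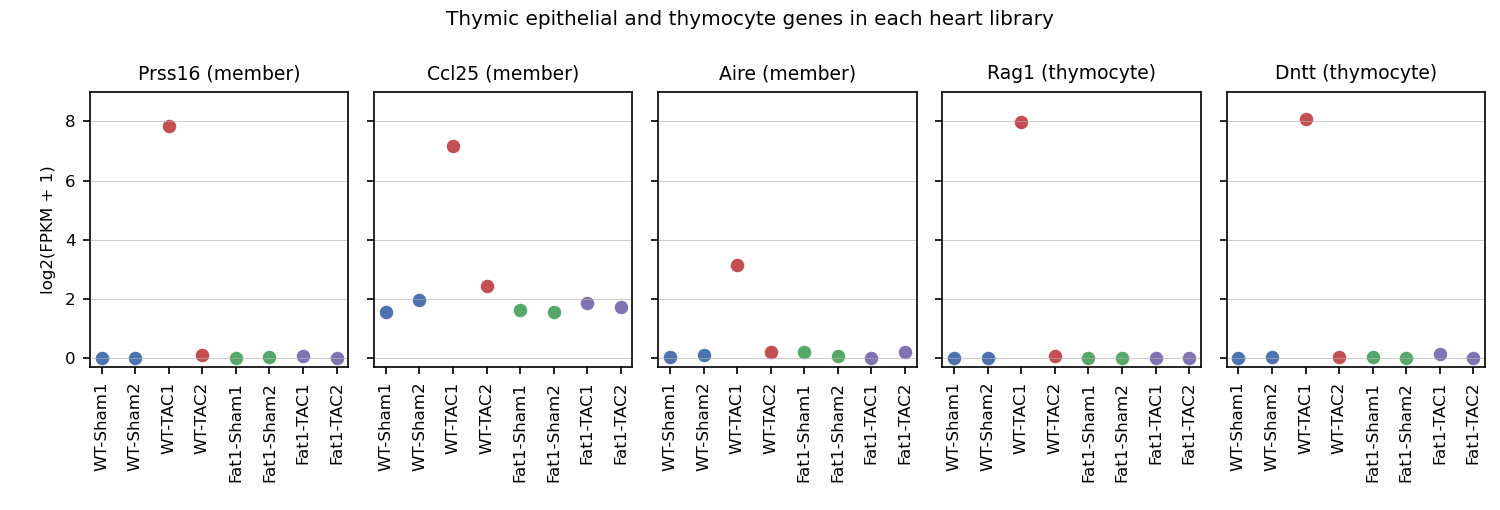
Level of the 3 measured thymic epithelial genes and of the thymocyte genes Rag1 and Dntt on the log2(FPKM + 1) scale, 1 point per library, coloured by group. Each gene has 1 high point, WT-TAC1, and Ccl25 alone has a visible level in the other 7 libraries, between 1.96 and 4.39 FPKM.

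Exons of Aire overlap Dnmt3l, and exons of Ccl25 overlap Elavl1, in each case on the opposite strand. Whether fragments were counted by strand is not given in the sources used here. Dnmt3l, a cofactor of DNA methylation, was at 0.545 FPKM in WT-TAC1 and at 0.117 to 0.392 FPKM elsewhere. Elavl1, a widely expressed RNA-binding protein, was at 18.7 FPKM in WT-TAC1 and at 8.09 to 11.0 FPKM elsewhere. Both neighbours were highest in WT-TAC1, as were 51.7% of all listed genes. The part of Elavl1 in the levels of Ccl25, and of Dnmt3l in those of Aire, was not tested.

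Rag1 and Dntt had the same single high library. Rag1 was at 252 FPKM in WT-TAC1, from 33000 fragments, with 7 fragments in WT-TAC2 and 0 in the other 6 libraries. Dntt was at 267 FPKM in WT-TAC1, from 11109 fragments, and no other library held more than 4. Per length, Prss16 was at 0.904 of the level of Rag1 in WT-TAC1 and Ccl25 at 0.564 of it. Aire was 31.9 times lower than Rag1. A gene that marks cortical stroma and a gene that marks immature thymocytes were thus at similar FPKM in this heart library. In bulk tissue, fewer cells of a type and less RNA per cell cannot be told apart.

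**Figure D2:**
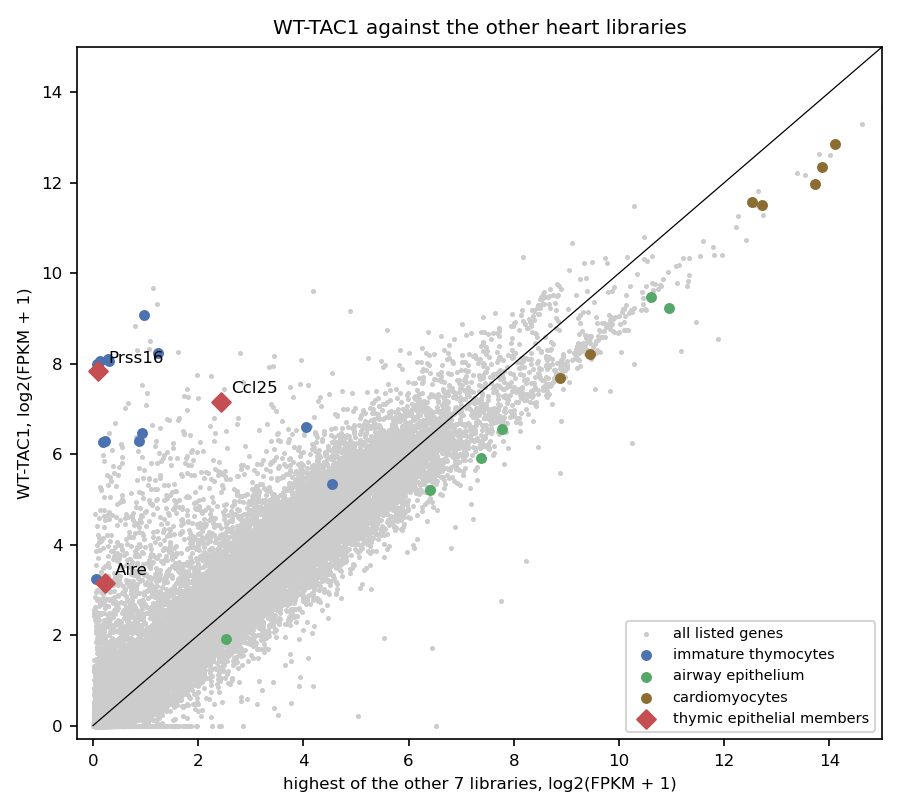
WT-TAC1 on the vertical axis against the highest of the other 7 libraries on the horizontal axis, both as log2(FPKM + 1), for all 25929 listed genes. The line marks equal values, and Prss16, Ccl25 and Aire lie far above it with 11 of 13 immature thymocyte genes, whereas airway and cardiomyocyte genes lie below it.

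The comparisons of groups ask whether pressure overload or the fat-1 transgene changed these genes. They were tested in 1 limma fit over the 14442 genes that reached 1 FPKM in 2 or more libraries. A call needed an adjusted p (Benjamini-Hochberg) below 0.1 together with a 1.5-fold difference in either direction. Only Ccl25 of the 3 genes passed this filter, since Aire and Prss16 exceeded 1 FPKM in WT-TAC1 alone. None of the 5 comparisons called Ccl25. Between WT-TAC and WT-Sham its log2 fold change was 3.02 (SE 1.27), with a limma adjusted p of 0.181 and an unadjusted p of 0.0483, where 133 genes (0.921%) were called higher and 2 (0.0138%) lower. The median gene differed by 0.39 in the same direction on this scale. Both WT-TAC values of Ccl25 were above all 6 others, which was true of 8647 listed genes (33.3%). Without WT-TAC1, the log2 fold change of Ccl25 was 0.66 with a limma adjusted p of 0.281. Without WT-TAC2 it was 5.39 with an adjusted p of 5.44e-05, and Ccl25 was called. In that fit 6155 genes (44.0%) were called higher, so a call there was common, and the lone library WT-TAC1 was assumed to vary like the other groups.

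Between Fat1-TAC and WT-TAC, which share the WT-TAC libraries with the comparison above, the log2 fold change of Ccl25 was -3.00 (SE 1.27), with a limma adjusted p of 0.169. Here 201 genes (1.39%) were called lower in Fat1-TAC and 5 (0.0346%) higher, and the median gene differed by -0.40. Without WT-TAC1 the value was -0.63 with an adjusted p of 0.258, and without WT-TAC2 it was -5.36 with an adjusted p of 5.24e-05, which passed the call as 6444 genes (46.1%) did in that direction. The comparisons without a WT-TAC library gave smaller values for Ccl25. Its log2 fold change was -0.17 (SE 1.27) between Fat1-Sham and WT-Sham, and 0.19 (SE 1.27) between Fat1-TAC and Fat1-Sham, both with an adjusted p of 1.0. Across all genes, the first of these called 0 genes. With an unadjusted limma p below 0.05 and a 1.5-fold difference, 29 genes had higher values there and 100 had lower values. The second called 1 gene higher (0.00692%) and 0 lower. The interaction of genotype and surgery was -2.83 (SE 1.80) for Ccl25, with an adjusted p of 0.495, where 9 genes (0.0623%) were called in that direction. Without WT-TAC1 it was -0.46 with an adjusted p of 0.604, in a fit that called 10 genes (0.072%) in that direction, and without WT-TAC2 it was -5.19 with an adjusted p of 0.000352 and was called, as were 5499 genes (39.3%) in that direction.

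Aire and Prss16 did not pass the filter, and a looser filter would admit them through WT-TAC1 alone, the library in which they were high. Their levels between groups are therefore given as values, without a test. The mean of Prss16 was 114 ± 161 FPKM (SD, n = 2) in WT-TAC and at most 0.0340 FPKM in the other groups, and that of Aire was 4.03 ± 5.47 FPKM in WT-TAC and at most 0.112 FPKM in the others. For both genes the SD of WT-TAC exceeded its mean. An exact permutation test of 2 libraries against 2 cannot give a two-sided p below 0.33.

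Other genes of thymic epithelium were read from lists of transcription factors, cortical genes and medullary genes. All 7 transcription factors were highest in WT-TAC1, as were 13415 listed genes (51.7%). Of the 7, 3 were at 10 or more times every other library, beside 2.47% of all listed genes. Pax1, which patterns the pharyngeal pouch from which the thymus grows, was at 20.1 FPKM in WT-TAC1 and at 0 to 0.0593 elsewhere. Fezf2, which drives tissue antigens in medullary epithelium apart from Aire, was at 4.01 FPKM in WT-TAC1, at 0.0258 in Fat1-Sham1 and at 0 in the other 6. Trp63, the p63 factor of epithelial progenitors, was at 6.56 FPKM against 0.108 to 0.640. These 3 had 1 high library each and no overlap with it. Hoxa3, an upstream factor of pouch patterning, was at 2.34 FPKM in WT-TAC1 and at 1.87 in WT-TAC2. Of the 3 transcription factors tested, Hoxa3, Eya1 and Spib, 0 were called between WT-TAC and WT-Sham. Spib passed the filter through the WT-TAC libraries alone, at 6.74 and 2.52 FPKM against at most 0.967 elsewhere. Outside WT-TAC, Eya1 reached 1 FPKM in Fat1-Sham1 only, at 1.19 FPKM, and Hoxa3 in WT-Sham2 only, at 1.15 FPKM. Both needed a WT-TAC library to pass the filter, so the 3 tests carry no weight.

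Of the 7 cortical genes, 4 were highest in WT-TAC1, which is near the 51.7% of all listed genes. At 10 or more times every other library were 2 of the 7, beside 2.47% of all listed genes. Tbata, a gene of thymic stroma and testis, was at 136 FPKM in WT-TAC1, at 1.004 in WT-TAC2 and 0 to 0.102 in the other 6. Ly75, the endocytic receptor DEC-205 of cortical epithelium and dendritic cells, was at 12.1 FPKM against 0.168 to 0.406. Il7, the cytokine that sustains early thymocytes, was at 4.39 FPKM against 0.181 to 0.606. WT-TAC1 alone was high for all 3. Ctsl, the lysosomal protease cathepsin L, was at 259 FPKM in WT-TAC1 and at 82.3 to 115 in the others. The remaining 3 encode signals that many tissues use, and WT-TAC1 was not their highest library. The Notch ligand Dll4 was at 8.20 FPKM in WT-TAC1 and 8.57 to 11.6 elsewhere. Kit ligand, Kitl, was at 40.1 FPKM against 42.5 to 56.4. The chemokine Cxcl12, at 70.0 FPKM, lay within the range of 56.0 to 87.6 FPKM of the other libraries.

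Of the 8 medullary genes measured, 7 were highest in WT-TAC1, beside 51.7% of all listed genes. At 10 or more times every other library were 2 of the 8, beside 2.47%. Those were the keratins Krt5, at 47.3 FPKM in WT-TAC1, at 2.47 in WT-TAC2 and 0 to 0.0257 in the others, and Krt14, at 19.4 FPKM against 0.109 to 1.74. Cldn4, a tight junction protein of medullary epithelium, was at 5.94 FPKM in WT-TAC1, at 1.38 in WT-TAC2 and at most 0.0845 elsewhere. Cldn3, a tight junction protein, was the exception, at 2.52 FPKM in WT-TAC1 and at 6.63 in WT-TAC2. In the other 6 libraries Cldn3 was at 0.162 to 0.569 FPKM, so it passed the filter through the WT-TAC libraries alone and is given by its values. Cd80 and Cd40, which take part in signals to T cells and from them, were at 2.28 and 6.27 FPKM in WT-TAC1 and at no more than 0.655 and 3.06 elsewhere. Of the tissue antigens that depend on Aire, Ins2, an insulin gene, had 3 fragments in WT-TAC1, 2 in Fat1-Sham1 and 0 in the other 6 libraries, all at or under the floor, and Rbp3, Tff3 and Spt1 were not analysed here.

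**Figure D3:**
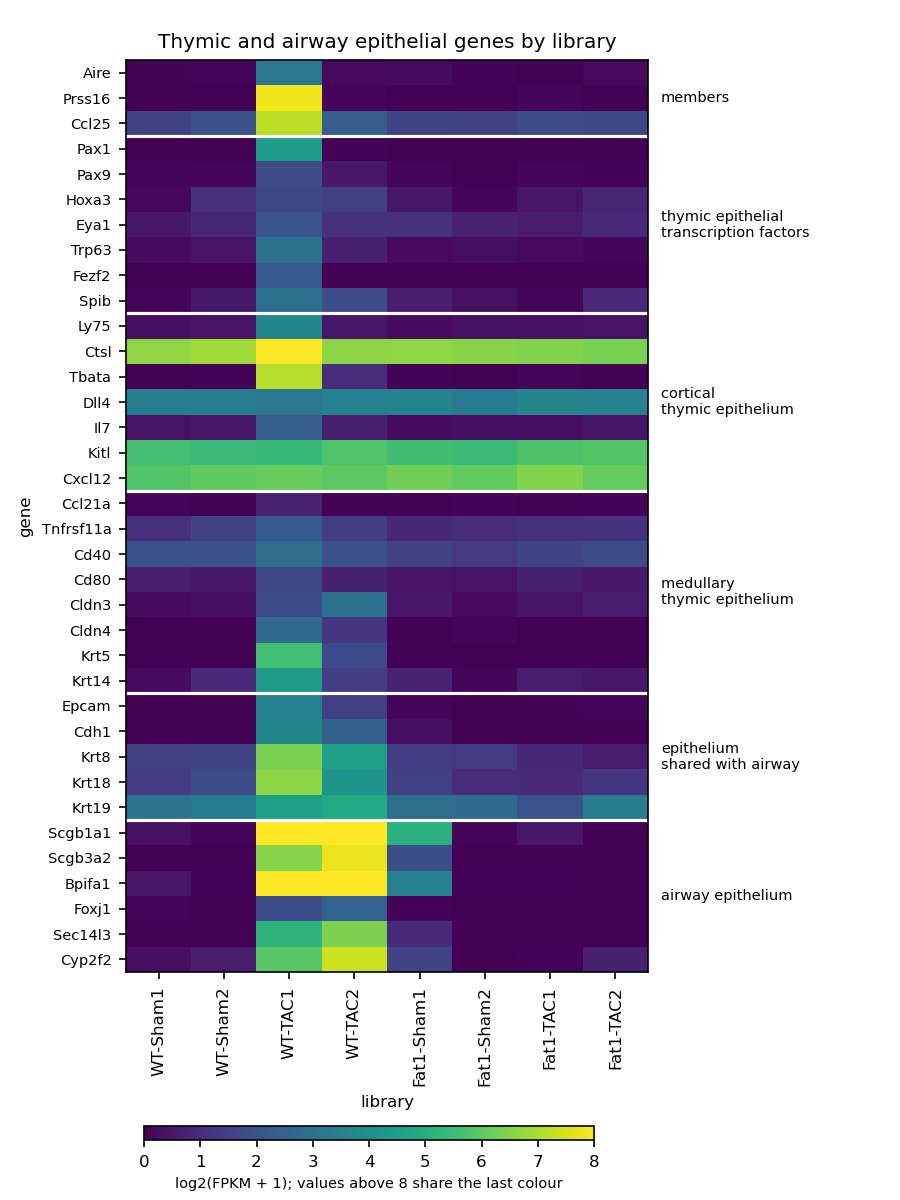
Level of thymic and airway epithelial genes in each of the 8 libraries as log2(FPKM + 1), 1 row per gene, grouped by list, with values above 8 sharing the last colour. Prss16, Ccl25, Pax1, Tbata and Krt5 are bright in WT-TAC1, whereas the 6 airway genes at the bottom are bright in both WT-TAC libraries.

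Epithelial genes can come from more than 1 tissue, and genes of airway epithelium were raised in the same group. All 6 airway genes were called in WT-TAC against WT-Sham, with higher values after TAC, and in Fat1-TAC against WT-TAC, with lower values in Fat1-TAC, beside 0.921% and 1.39% of all genes. In the fit without WT-TAC1, the lone library WT-TAC2 was assumed to vary like the other groups. Foxj1 and Sec14l3 passed the filter through the WT-TAC libraries alone, where they were high. Outside WT-TAC, the other 4 genes reached 1 FPKM in Fat1-Sham1 only, so they also needed a WT-TAC library to pass. The calls of all 6 are therefore given without weight, with or without WT-TAC1. Without WT-TAC1, the other 4 were tested and 3 were called in each comparison, Bpifa1, Cyp2f2 and Scgb3a2, beside 0.137% and 0.166% of all genes, while Scgb1a1 was not called. All 6 were lower in WT-TAC1 than in WT-TAC2, with ratios between 0.305 and 0.573. Scgb1a1, the secretoglobin of club cells, was at 707 FPKM in WT-TAC1, at 1555 in WT-TAC2, 33.1 in Fat1-Sham1 and at most 0.450 in the other 5. Prss16, Ccl25 and Aire had the opposite order in the WT-TAC libraries, and none was high in Fat1-Sham1. Krt5, Krt14 and Trp63, which airway basal cells also express, were 19.2, 11.1 and 10.3 times as high in WT-TAC1 as in WT-TAC2. The basal cell keratin Krt15 went the other way, its WT-TAC1 level being 0.376 times that of WT-TAC2. Basal cell genes thus did not share a single order between these libraries. Of the 5 keratin and adhesion genes common to both epithelia, 4 were highest in WT-TAC1, beside 51.7% of all listed genes. Epcam was at 10.6 FPKM in WT-TAC1 and at 1.83 in WT-TAC2, and Krt8 was at 82.6 and 23.0. Krt19 had the reverse order, at 22.5 and 27.8 FPKM. Krt8 was called higher after TAC in wild-type hearts, and Krt8 and Krt18 were called lower in Fat1-TAC than in WT-TAC. Without WT-TAC1, Krt8 and Krt18 were called in both comparisons. Cdh1 passed the filter through the WT-TAC libraries alone, at 11.9 and 4.58 FPKM against at most 0.220 elsewhere, and is given by its values.

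The lymphoid genes in the same libraries were read next. Of 13 immature thymocyte genes, all were highest in WT-TAC1, beside 51.7% of all listed genes. At 10 or more times every other library were 11 of the 13, beside 2.47%. The summed level of the 13 was 2364 FPKM in WT-TAC1, led by Tcf7 at 540 FPKM, and 15.2 to 38.7 FPKM in the others. Cd4 was at 302 FPKM and Cd8a at 267 FPKM in WT-TAC1, at most 1.36 and 0.228 elsewhere. Ptcra, the pre-T cell receptor alpha chain found before the mature receptor is made, was at 8.45 FPKM in WT-TAC1 and at most 0.0417 in the others. All 9 genes of the list of the T cell receptor complex and signalling were at 10 or more times every other library, beside 2.47% of all listed genes. Lck, the kinase bound to Cd4 and Cd8, was at 453 FPKM against at most 0.731. Ccr9, the receptor for Ccl25, was at 76.9 FPKM in WT-TAC1 and at most 0.176 elsewhere, and Ackr4, a scavenger of Ccl25, was at 4.79 FPKM against 1.70 to 3.26. Receptor and ligand were thus high in 1 library together, with Ccl25 at 1.85 times the FPKM of Ccr9.

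Genes of mature and circulating T cells had a lower median than immature thymocyte genes in WT-TAC1, and a higher one in every other library. Of 10, 8 were highest in WT-TAC1, beside 51.7% of all listed genes. At 10 or more times every other library were 7 of the 10, beside 2.47%. The median of the 10 in WT-TAC1 was 18.5 FPKM beside 95.5 FPKM for the immature thymocyte genes. Klf2 and S1pr1, which let mature T cells leave the thymus and which endothelium also expresses, were at 27.5 and 14.9 FPKM in WT-TAC1. In the other libraries Klf2 was at 23.3 to 87.3 FPKM and S1pr1 at 17.3 to 20.8. Ccr7, which guides T cells to the medulla and to lymph nodes, was at 15.7 FPKM in WT-TAC1 and at most 0.362 elsewhere.

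B cell genes had another pattern. Of 5, 0 were at 10 or more times every other library, and their summed level was 18.4 FPKM in WT-TAC1, at 14.6 in WT-TAC2, 11.3 in Fat1-TAC2 and 1.49 to 3.02 in the other 5. The genes of lymph node follicles, led by Cxcl13 at 10.6 FPKM in WT-TAC1 and at 9.73 in WT-TAC2, did not single out WT-TAC1 either. The follicle genes Fcer2a and Cr2 were at 1.99 and 1.52 FPKM in WT-TAC1 and at 1.22 and 0.945 in WT-TAC2. Prss16 and Rag1 were at 2 and 7 fragments in WT-TAC2. How B cell and follicle genes relate to the levels of Prss16 and Rag1 was not tested. Of 4 dendritic cell genes, 1 was at 10 or more times every other library, beside 2.47% of all listed genes. The 1 was Ccl22, a chemokine of thymic dendritic and medullary cells, at 16.5 FPKM in WT-TAC1 and at most 0.551 elsewhere.

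Cardiomyocyte genes moved the other way. All 7 were lower in WT-TAC1 than in any other library, at 42.2% to 55.3% of the median of the others. Myh6, the alpha myosin heavy chain, was at 7406 FPKM in WT-TAC1 and 12114 to 17694 in the others. The labelled tissue was thus present in each library by its defining markers. WT-TAC1 also had more genes above 0, 24282 against 20192 to 22949 in the others. The part of either in the levels of Ccl25, Prss16 and Aire was not tested.

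**Figure D4:**
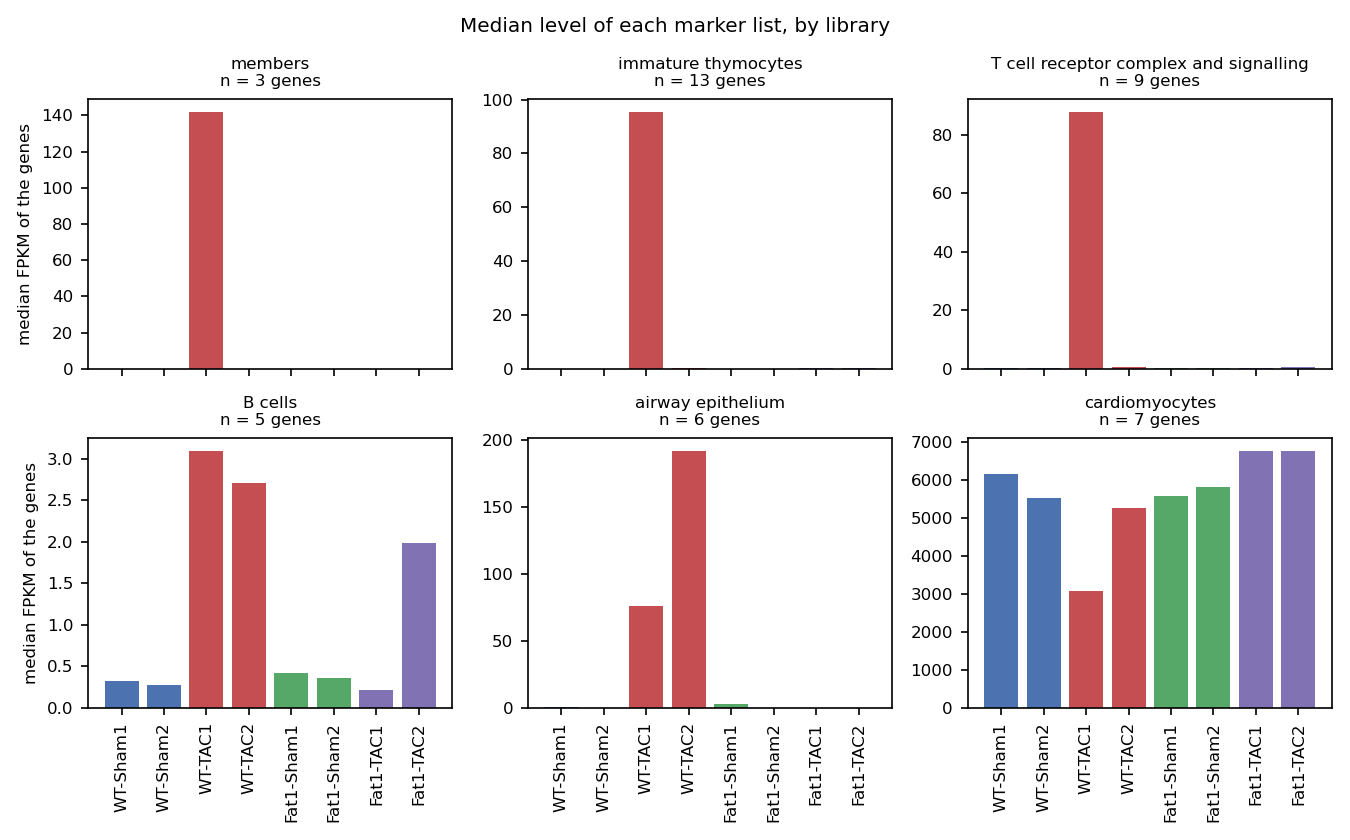
Median FPKM of the genes of 6 marker lists in each library, as bars from 0, coloured by group, with the number of genes above each panel. The thymic epithelial, immature thymocyte and T cell receptor medians stand out in WT-TAC1, the airway median is higher in WT-TAC2, B cell genes are raised in 3 libraries and cardiomyocyte genes are lowest in WT-TAC1.

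Other sources of single genes were read as well. Ccl25 is also made in small intestine, and of the 3 intestinal genes measured Vil1 was at 0.981 FPKM in WT-TAC1 and 0.0867 to 0.420 elsewhere, and Alpi was at 0.0216 FPKM in WT-TAC1 and at most 0.0715 elsewhere, while Lgals4 lay between 22.7 and 48.8 FPKM in all libraries. For skin, Krt1 was at 0.536 FPKM in WT-TAC1 and at most 0.0460 elsewhere, and Flg was at 0.116 FPKM in WT-TAC1 and at most 0.0215 elsewhere. Krt10 was at 3.84 FPKM in WT-TAC1 and 1.41 to 2.59 elsewhere, and Lor at 0.482 FPKM against 0.230 to 0.812. Vil1, Krt1, Flg and Krt10 were thus also highest in WT-TAC1, Krt10 at a level above 1 FPKM. Krt15, a keratin of basal cells, was at 6.46 FPKM in WT-TAC1 and at 17.2 in WT-TAC2 and at 0 in the other 6. Krt15 thus passed the filter through the WT-TAC libraries alone and is given by its values. Thyroglobulin, Tg, was at 0.822 FPKM in WT-TAC1, within the range of 0.558 to 1.34 of the others, and Pax8 was at most 0.0394 in any library.

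The genes whose distribution over the 8 libraries was most like that of Aire, Prss16 and Ccl25 were found by the overlap of shares, in which each gene's FPKM is divided by its sum over the libraries. WT-TAC1 held 99.9% of that sum for Prss16, 92.1% for Aire and 88.6% for Ccl25. Among 16359 genes, 426 overlapped the mean of the 3 by over 90% and 184 by over 95%. The 10 with the most overlap, from 99.2% to 98.5%, were Cdca7, Slc16a5, Top2a, Arl5c, Tlr12, Ikzf1, Mns1, Dnah8, Fcho1 and Ccr7. Cdca7 was at 156 FPKM in WT-TAC1 and 0.936 to 2.33 elsewhere, and Ikzf1, the lymphoid factor Ikaros, was at 149 FPKM against 1.06 to 3.01. Top2a, the topoisomerase of dividing cells, was at 214 FPKM against 1.53 to 2.95. The overlap was set by the share of WT-TAC1, and without that library 0 of these 10 stayed among the 10 most alike.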

How the data were processed

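The table the authors deposited holds 1 FPKM value per gene and library for 25929 genes, of which 25852 carried a symbol. The submitters' processing notes name HISAT2 and the builds mm10 and GRCm38. Versions, counting program, annotation and strand of counting are not given in the sources used here. Coordinates are those of GENCODE M21 (GRCm38), and promoters those of RefSeq. Removed were 4 blank lines. Depth was recovered as the scale at which values became whole fragments within 0.001, which held for all genes but 1. This was at the annotated median length for 12088 genes and at another length for 13840. Fragments of Aire, Prss16 and Ccl25 are the smallest whole counts that their values allow. The 3-fragment floor and the intervals cover counting error only.

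Values were transformed as log2(FPKM + 1), so fold changes of low genes are understated, and tested with limma 3.58.1 (R 4.3.3), lmFit and eBayes with a trend, 4 group means and all 8 libraries. The code was tested on simulated data. Alternatives were other scalings, filters and a pseudocount of 0.1, only the groups compared, a replicate block, no moderation, limma-voom on recovered fragments and each library left out. Members and marker lists were chosen with earlier results of these data known. Any gene of a list could be named, as well as the 10 genes with the most similar distribution. Dnmt3l and Elavl1 were added for their overlap. Some genes of the transcription factor list are not reported here.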

Additional observations from a re-analysis of the deposited data

How the results depend on the processing

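The fold changes of Ccl25 kept their direction under the alternatives run, except between Fat1-Sham and WT-Sham, where without WT-Sham replicate 2 the log2 value was 0.039 and the range leaving out 1 library was -0.379 to 0.039. The number of the 3 genes called ranged from 0 to 1 when 1 library was left out, in WT-TAC against WT-Sham, in Fat1-TAC against WT-TAC and in the interaction. The 1 was Ccl25 without WT-TAC2 each time, and no other alternative called it. Aire and Prss16 passed only looser filters, through WT-TAC1 alone, and are given without a test. Outside the left-out libraries, the log2 fold change of Ccl25 was 2.59 to 3.38 between WT-TAC and WT-Sham and -3.38 to -2.57 between Fat1-TAC and WT-TAC. With the replicate block it was 3.02 (SE 1.20), with a limma adjusted p of 0.213, and the block changed no call of Ccl25. Replicate numbers did not pair the libraries, with correlations of the deviations between -0.135 and 0.024.

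Counts over all genes depended on the setting. The 133 genes called higher after TAC in wild-type hearts became 6 to 286 under the other settings, 19 without WT-TAC1 and 6155 without WT-TAC2, and leaving out 1 library gave 0 to 6155. The 201 called lower in Fat1-TAC than in WT-TAC became 12 to 342, 23 without WT-TAC1 and 6444 without WT-TAC2, and leaving out 1 library gave 4 to 6444. The interaction could not be fitted with only the groups compared. Of the 10 genes most alike, 10 remained with a filter of 0.1 FPKM and 0 without WT-TAC1. With 2 libraries a group, the spread of WT-TAC rests on 1 pair, and Aire and Prss16 were near the floor in 7 libraries.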

Other observations

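Proteasome subunits were read beside Psmb11, which is the thymic form of the beta5 subunit. Psmb5, the constitutive beta5 subunit, was at 42.0 FPKM in WT-TAC1 and at 39.2 to 52.2 FPKM in the other libraries. Psmb8, the beta5 subunit of the immunoproteasome, was at 50.2 FPKM in WT-TAC1 and at 4.43 to 8.83 FPKM elsewhere. Psmb9 and Psmb10, the other catalytic subunits of the immunoproteasome and also parts of the thymoproteasome, were at 51.0 and 88.2 FPKM in WT-TAC1 and at no more than 14.6 and 61.4 FPKM in the other 7. The constitutive Psmb6 and Psmb7 lay within the range of the other libraries, at 142 and 36.7 FPKM. None of these 6 genes was called between WT-TAC and WT-Sham in the fit of all 8 libraries or without WT-TAC1, whereas Psmb8, Psmb9 and Psmb10 were called higher without WT-TAC2, where 44.0% of all genes were.

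Foxn2 and Foxn3, relatives of Foxn1 found in many tissues, were at 13.96 and 66.5 FPKM in WT-TAC1 and at 3.46 to 6.03 and 39.8 to 50.9 FPKM elsewhere. Prcp and Dpp7, serine proteases of the family of Prss16, were at 16.7 and 8.96 FPKM in WT-TAC1 and at no more than 10.9 and 8.53 FPKM elsewhere. These levels were not divided by the median-of-ratios factor, which was 1.51 for WT-TAC1. Genes of alveolar epithelium were also uneven, with Sftpc, the surfactant protein C of type 2 cells, at 74.7 FPKM in WT-TAC1, 29.9 in Fat1-Sham1 and at most 0.139 in the other 6. Adipoq, the adipocyte hormone adiponectin, was at 100.3 FPKM in WT-TAC1, at 120 in WT-TAC2 and 0.818 to 42.5 in the others. Plin1, which coats lipid droplets, had the same order at 77.0 and 105 FPKM against 0.371 to 39.0. The thermogenic genes Ucp1 and Cidea were highest in WT-TAC2, at 102 and 115 FPKM, and at 39.4 and 41.6 FPKM in WT-TAC1 they lay within the range of the other 6 libraries.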
